A study of Mus musculus with 40 samples.

Results

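The 10 mice that received 5 closed head injuries (5xCHI) differed widely from each other in gliosis, and the difference ran with the sample number. Within 5xCHI, the samples numbered 7 to 12 (n = 6, called the first set here) were set against the samples numbered 31 to 34 (n = 4, the second set). These 10 samples are 10 of the 40 in the series. The split was selected on measured values, because the level of Gfap and of many other transcripts differed between these sample numbers, so every value of the 5xCHI comparison is a description, and counts of features past a threshold in it only give its size and are not read as a test. The labels give no reason for the numbering, and no batch is named in them. The same split by number, up to 18 against from 19, was then applied to mice injured 1 time (1xCHI) or 3 times (3xCHI), which did not enter the choice, and there it was tested.

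All mice were female 3xTg-AD animals, a line that carries mutant human genes of amyloid processing and of tau, so sham-injured controls carry them too. The groups therefore model injury in brains already prone to Alzheimer-like pathology. Closed head injury was given by weight drop under isoflurane, once a day with the skull intact, and the left somatomotor cortex was collected 0.5, 4 or 24 h after the last injury. Sham mice (n = 4) were anaesthetized without injury and are pooled over time, 1xCHI had 10 mice, 3xCHI had 9 mice here (sample 30 was left out), and 2xCHI and 4xCHI had 3 mice each at 24 h only. Values of 3xCHI are also given with sample 30 (4 h, second set) where they moved. In 5xCHI, the first set held 2 mice at each time (7 and 8 at 0.5 h, 9 and 10 at 4 h, 11 and 12 at 24 h). The second set held sample 31 at 0.5 h, sample 32 at 4 h and samples 33 and 34 at 24 h, so every time was present in both sets and time was kept as a block in each fit. The labels number the samples singly, and each was taken as a separate animal.

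Gliosis is the response of glial cells to damage. Astrocytes enlarge and build up intermediate filaments of glial fibrillary acidic protein (Gfap) and vimentin (Vim), while microglia, the resident phagocytes, take up debris and raise lysosomal and complement genes. In cortex, Gfap is low in resting astrocytes, which makes it a widely used sign of their activation. Levels below are CPM, the count of a gene scaled to 1000000 counts in its sample, and differences are log2 fold changes of the first set over the second. Because RNA came from whole tissue, more cells of a type and more RNA per cell cannot be told apart.

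Total counts in 5xCHI were 15925995 to 23223033, with both ends in the first set and the second set at 16134606 to 23035467, so depth was similar. Mitochondrial genes took 6.41% to 7.35% of counts in the first set and 6.01% to 8.47% in the second. Ribosomal protein genes took 1.02% to 1.73% and 0.91% to 1.25%, with samples 11 (1.73%) and 10 (1.33%) the highest. Defining markers of cortical neurons (Slc17a7, the vesicular glutamate transporter, 953 to 1320 CPM) were high in all 10 samples, which fits the labelled tissue. Xist was at 476 to 1050 CPM and the Y-linked Uty and Kdm5d at 0.0628 CPM or less, which fits the labelled sex. Samples 10 and 11 stood apart from the other 8 in glial genes, so values are given with and without them. This pair was singled out after its values had been seen and is used only to show how far each value rests on it.

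Gfap reached 322 and 560 CPM in samples 7 and 8, 344 in sample 9, 1670 in sample 10, 2490 in sample 11 and 192 in sample 12. In samples 31 to 34 it was 105, 122, 111 and 129 CPM. The sets did not overlap, and the lowest sample of the first set, a mouse at 24 h, still lay above every sample of the second set. The first set was 7.36 times as high in the fit (log2 2.88, SE 0.69), and without samples 10 and 11 it was 2.62 times as high (log2 1.39). Spread within the sets was also unequal, with a mean of 930.0 ± 936 CPM (SD, n = 6) against 117 ± 10.7 CPM (SD, n = 4). The difference was present at each time. At 0.5 h the first set had 322 and 560 CPM against 105, at 4 h it had 344 and 1670 against 122, and at 24 h it had 192 and 2490 against 111 and 129.

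**Figure D1:**
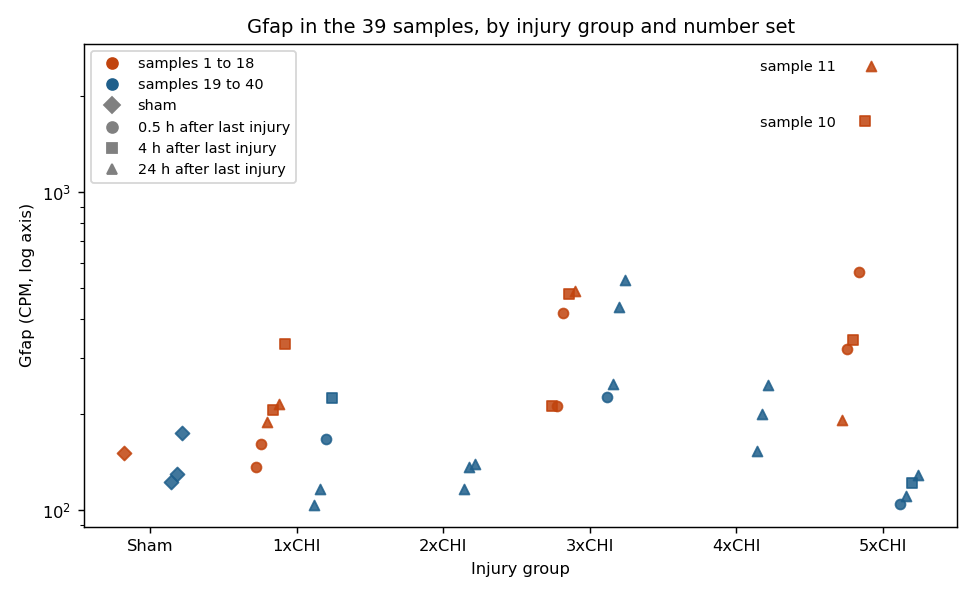
Gfap in CPM (log axis) in each of the 39 samples, by injury group, with colour for the number set and shape for the time after the last injury; each point is 1 sample. Samples 10 and 11 of 5xCHI lie at 1670 and 2490 CPM, and samples 31 to 34 of 5xCHI lie between 105 and 129 CPM, near the 4 sham samples at 123 to 175 CPM.

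The other groups place these values. Sham samples had 123 to 175 CPM of Gfap, 2xCHI 117 to 140 and 4xCHI 153 to 247, so the second set of 5xCHI overlapped the lower end of the sham range and lay otherwise below it, in spite of 5 injuries. In 1xCHI the samples up to 18 had 137 to 332 CPM (median 197) and those from 19 had 104 to 225 (median 142). In 3xCHI the samples up to 18 had 212 to 490 (median 417) and those from 19 had 227 to 528 (median 342). The sets overlapped in both groups. The difference was 0.36 in 1xCHI on the log2 scale (SE 0.166, edgeR adjusted p = 0.1) and 0.34 in 3xCHI (SE 0.337, edgeR adjusted p = 0.711). Sample 30, with 112 CPM, would extend the range of the second set of 3xCHI downward, and with it the difference was 0.72 (SE 0.323, edgeR adjusted p = 0.278). The difference of 5xCHI exceeded that of 1xCHI by 2.53 (SE 0.714) and that of 3xCHI by 2.53 (SE 0.919), which is given without a test because the 5xCHI side was selected on this gene.

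The start regions of Gfap, Vim and Serpina3n are shown because these transcripts moved together across the 10 samples. They cover 250 bases before to 50 bases after the RefSeq start site on GRCm38.p6 and are written along the strand of the gene. Capitals mark a match to the palindromic STAT motif TTCNNNGAA, the site of factors that act downstream of gp130 cytokine receptors.
Gfap, chr11:102897151-102897450, minus strand: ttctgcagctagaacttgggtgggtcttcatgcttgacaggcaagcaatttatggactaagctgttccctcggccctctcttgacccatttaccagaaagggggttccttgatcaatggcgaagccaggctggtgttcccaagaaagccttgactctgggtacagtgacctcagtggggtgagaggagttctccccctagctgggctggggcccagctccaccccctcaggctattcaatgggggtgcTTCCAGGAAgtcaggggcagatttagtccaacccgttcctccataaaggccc
Vim, chr2:13574061-13574360, plus strand: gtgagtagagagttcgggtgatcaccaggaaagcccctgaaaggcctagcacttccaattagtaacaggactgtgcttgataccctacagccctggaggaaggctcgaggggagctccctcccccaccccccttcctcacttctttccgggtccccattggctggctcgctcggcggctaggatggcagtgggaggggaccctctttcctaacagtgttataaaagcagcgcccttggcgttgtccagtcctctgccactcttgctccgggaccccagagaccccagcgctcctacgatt
Serpina3n, chr12:104406458-104406757, plus strand: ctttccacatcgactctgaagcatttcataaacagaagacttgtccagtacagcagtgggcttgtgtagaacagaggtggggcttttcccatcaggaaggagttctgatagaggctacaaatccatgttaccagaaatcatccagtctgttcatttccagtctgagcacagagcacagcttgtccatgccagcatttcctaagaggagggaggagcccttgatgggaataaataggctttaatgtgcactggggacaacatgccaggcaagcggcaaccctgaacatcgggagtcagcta
The Gfap region held 1 match, which begins 2 bases before the start site, and the Vim and Serpina3n regions held none. The Gfap region lies inside the longer GENCODE gene (chromosome 11, 102887336 to 102900912), which has further start sites upstream. Among all 32851 RefSeq promoters of this length, 8.3% held the STAT motif. The AP-1 motif TGANTCA, searched like the STAT motif on both strands (both are their own reverse complement when N is free), was in none of the 3 regions and in 7.81% of all promoters. A match describes letters only.

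Among genes of the pan-reactive astrocyte list (genes raised in astrocytes by several kinds of injury), 9 of 13 passed the filter on low counts, all 9 had a positive fold and in 6 the sets did not overlap. The median log2 fold change was 1.60, and 0.93 without samples 10 and 11, against 0.00853 for all 15224 features tested. Over all features, 4.8% had non-overlapping sets with the first set higher and 1.92% with the first set lower. Because this contrast chose the split, these shares describe the pattern and support nothing further. Summed over the list, samples 31 to 34 had 180 to 206 CPM, sample 12 had 320, samples 7, 9 and 8 had 473, 479 and 786, and samples 10 and 11 had 2280 and 3750.

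Vim, the second intermediate filament of reactive astrocytes, was at 50.9 to 122 CPM in samples 7, 8, 9 and 12, at 361 in sample 10 and at 790 in sample 11, against 32.3 to 40.5 CPM in the second set (log2 2.59, or 0.93 without samples 10 and 11). Serpina3n, a secreted serine protease inhibitor, was at 16.1 to 47.5 CPM in the 4 lower samples, 123 in sample 10 and 318 in sample 11, against 5.45 to 9.04 CPM (log2 3.47, or 1.54). Cd44, the hyaluronan receptor, was at 3.23 to 6.37, 28.2 and 22.7 CPM, against 1.58 to 2.43 (log2 2.29, or 1.04). In each of these genes every first-set sample lay above every second-set sample. Osmr, the receptor subunit for oncostatin M, also separated the sets, at 6.91 to 9.31 CPM in the lower samples, 19.3 in sample 10 and 16.5 in sample 11 against 2.49 to 4.17 (log2 1.60, or 1.08). S1pr3, a sphingosine phosphate receptor, did not, because sample 12 had 8.74 CPM within the 7.67 to 11.7 of the second set (log2 0.77, or 0.31).

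A pair of list members that failed the filter were close to absent from the second set. Lcn2, a secreted carrier of iron-binding siderophores, had 3.55, 2.13, 0.275, 2.11, 13.1 and 6.59 CPM in samples 7 to 12 and 0, 0, 0.0478 and 0 CPM in samples 31 to 34. Timp1, an inhibitor of matrix metalloproteinases, had 0.699 to 3.4 CPM in samples 7 to 10 and 12, 13.3 in sample 11 and 0.0956 to 0.391 in the second set. Unlike Gfap, Lcn2 was higher in sample 12 than in sample 10.

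The lists that are often used to label astrocyte states both leaned to the first set, by less. Of the A1-type list, all 11 members were tested, 11 had positive folds (10 without samples 10 and 11) and the median was 0.642 (0.39 without them). H2-D1, a classical MHC class I heavy chain, was at 39.5 to 57.6 CPM in samples 7 to 10 and 12 and 113 in sample 11 against 31.0 to 40.1 CPM. Of the A2-type list, 8 of 12 were tested, 7 had positive folds and the median was 0.534 (0.342 without samples 10 and 11). Cd14, the endotoxin co-receptor of myeloid cells, was at 5.71 to 13.0 CPM in the lower samples, 25.3 in sample 10 and 15.0 in sample 11 against 2.53 to 3.78. Tgm1, a transglutaminase that failed the filter, had 0.291, 3.89, 2.47, 23.6, 22.9 and 0.0861 CPM in samples 7 to 12 and 0 to 0.217 CPM in the second set.

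Genes of resting astrocytes were slightly higher in the first set. Of 19 members, 18 had positive folds, 6 separated the sets (against 4.8% of all features with the first set higher) and the median was 0.371. Without samples 10 and 11 the median was 0.149, and 14 were positive. Aldoc, the astrocyte form of aldolase, had 697 to 1320 CPM against 609 to 646. Slc1a2, the main glutamate transporter, had 2260 to 2930 CPM against 2090 to 2900, with sample 11 the lowest of the first set. Aqp4, the water channel of astrocyte endfeet, had 177 and 150 CPM in samples 10 and 11, and the other 4 samples (63.9 to 87.0) spanned the same range as the second set (67.1 to 90.1).

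**Figure D2:**
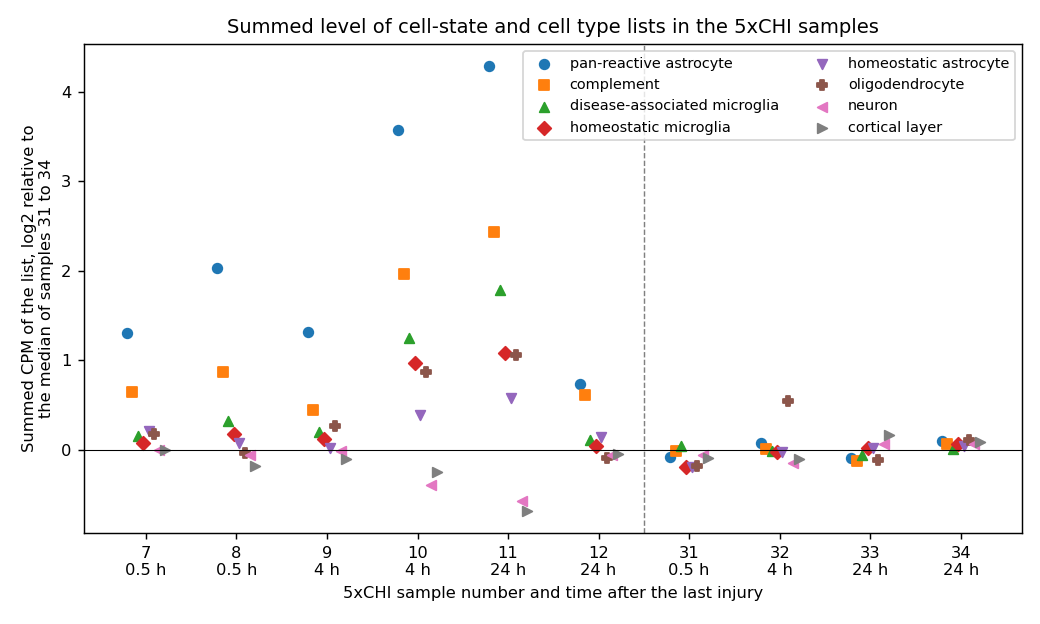
Summed CPM of 8 gene lists in each 5xCHI sample as a log2 ratio to the median of samples 31 to 34; each point is 1 list in 1 sample, and the dashed line parts the number sets. Pan-reactive astrocyte genes are above 0 in all 6 first-set samples, while microglia, oligodendrocyte and neuron lists move away from 0 mainly in samples 10 and 11.

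Microglial genes separated samples 10 and 11 more than they separated the sets. Of the 20 disease-associated microglia genes (the lysosomal and lipid-handling programme of activated microglia), 16 were tested and 15 had positive folds. In 7 the sets were separate, against 4.8% of all features with the first set higher. The median was 1.03, and 0.268 without samples 10 and 11. Their summed level was 1200 to 1390 CPM in samples 7, 8, 9 and 12, 2650 in sample 10 and 3830 in sample 11, against 1070 to 1140. Ctsd, the lysosomal protease cathepsin D, had 315 to 399 CPM in the lower samples, 956 in sample 10 and 1360 in sample 11 against 255 to 281. Lyz2, the lysozyme of myeloid cells, had 3.52 to 6.4, 34.3 and 62.4 CPM against 2.17 to 3.47.

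Some genes of this list were raised in samples 10 and 11 and near the second set elsewhere. Gpnmb, a glycoprotein of lipid-laden phagocytes, had 20.8 and 68.0 CPM in samples 10 and 11, 1.42 to 3.2 in the other 4 and 1.06 to 1.52 in the second set (log2 3.47, or 0.60 without them). Spp1, the secreted protein osteopontin, had 86.9 and 146 CPM there, 6.76 to 12.7 in the other 4 and 5.21 to 7.45 in the second set (log2 2.46, or 0.44). Lgals3, galectin-3, which failed the filter, had 19.4 and 30.8 CPM there and 2.26 CPM or less in the other 8 samples. Lpl, lipoprotein lipase, moved differently, with 40.2 and 37.8 CPM in samples 10 and 11 but 13.5 to 25.6 in the other 4, against 23.6 to 32.4.

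The homeostatic microglia list had a median of 0.32 (0.146 without samples 10 and 11), with 12 of 14 folds positive. Its summed level was 839 and 910 CPM in samples 10 and 11, 441 to 486 in the other first-set samples and 376 to 450 in the second set. P2ry12, the purinergic receptor of resting microglia, had 51.3 and 39.1 CPM in samples 10 and 11, 26.5 to 35.4 in the other 4 and 33.3 to 43.9 in the second set.

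Complement genes resembled the astrocyte list in order but were lower in size. Of 13, 10 were tested, all 10 had positive folds, with and without samples 10 and 11, and 5 separated the sets (median 1.29, or 0.525). Among all features, 4.8% had separate sets with the first set higher. C4b, the central component of the classical and lectin pathways, had 36.0 to 58.6 CPM in the lower samples, 180 in sample 10 and 214 in sample 11 against 12.6 to 20.8 (log2 2.55, or 1.49). C1qa, C1qb and C1qc, the chains of the initiating C1q, had 33.6 to 46.1, 39.2 to 55.6 and 33.6 to 43.6 CPM in the lower samples, 86.0, 120 and 92.1 in sample 10 and 144, 179 and 159 in sample 11. In the second set these chains lay at 22.4 to 30.7 CPM. C3ar1, the receptor for the C3a fragment, had 2.37 to 5.15, 14.9 and 14.4 CPM against 1.3 to 1.86.

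Secreted cytokines were mostly too low to test. Of 20 listed, 6 passed the filter, with a median of 0.503 (0.0843 without samples 10 and 11). Cx3cl1, the neuronal fractalkine, was lower in the first set without overlap, at 438 and 312 CPM in samples 10 and 11 and 499 to 587 in the other 4 against 592 to 664 (log2 -0.42). Tgfb1, the anti-inflammatory cytokine TGF-beta 1, was higher without overlap, at 5.0 to 7.28, 13.6 and 14.4 CPM against 3.73 to 4.4 (log2 1.07). Ccl3, a chemokine of activated microglia that failed the filter, had 2.39, 1.76, 2.48 and 1.87 CPM in samples 8 to 11 and 0 to 0.301 CPM in the other 6 samples.

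Over all features, 4.8% had separate sets with the first set higher and 1.92% with it lower. The gp130 and STAT3 signalling list had a median of 0.31 (0.115 without samples 10 and 11) with 5 of 12 tested genes separating the sets. They were Socs3, the feedback inhibitor (5.76 to 19.5 CPM against 2.85 to 4.28), Cebpd, an inducible transcription factor (5.71 to 23.5 against 1.72 to 3.33), Stat3 itself (44.1 to 71.9 against 32.4 to 41.7), Osmr, given above, and Cntfr, the receptor for ciliary neurotrophic factor (62.9 to 89.7 against 56.5 to 61.3). The shared receptor Il6st (68.3 to 94.1 against 62.0 to 91.1) and the kinase Jak1 (122 to 160 against 131 to 188) overlapped. Interferon-response genes did not separate the sets in any of 14 tested members, a count near those shares (median 0.285, or 0.0766). Stat2 had 34.5 to 36.8 CPM against 31.7 to 35.1. MHC genes had a median of 0.49 (0.26 without samples 10 and 11) with 4 of 11 separating the sets, among them H2-K1, a class I heavy chain, at 24.6 to 67.3 CPM against 16.6 to 24.0. The extracellular matrix list of the glial scar had a median of 0.182 (0.0765 without samples 10 and 11), and Bcan, the proteoglycan brevican, was its only member of 18 with separate sets (221 to 313 CPM against 187 to 194).

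Stress genes fell into 3 patterns. The metallothionein and oxidative stress list had a median of 0.428 (0.131 without samples 10 and 11). Mt1, a zinc-binding metallothionein, separated the sets at 135 to 622 CPM against 84.1 to 120. Hmox1, heme oxygenase 1, had 123 and 181 CPM in samples 10 and 11 and 4.77 to 11.3 in the other 4, against 3.73 to 5.13 (log2 3.25, or 0.46).

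The glucocorticoid-responsive list behaved differently. Its median was 0.664 and stayed at 0.52 without samples 10 and 11, with 11 of 12 folds positive in both cases. Plin4, a lipid droplet coat protein, had 17.9 to 83.2 CPM in the first set and 4.16 to 6.64 in samples 31, 33 and 34, but 18.7 in sample 32, above sample 9 (log2 2.40, or 2.09). Fkbp5, the FK506-binding co-chaperone induced by glucocorticoids, had 40.0, 40.7, 31.4, 56.1, 72.8 and 68.0 CPM in samples 7 to 12 against 19.0, 32.8, 22.4 and 25.6 in samples 31 to 34, with only samples 9 and 32, both at 4 h, out of order. Klf9, another induced factor and the most abundant member, had 273 to 335 CPM against 297 to 331 (log2 -0.07).

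Immediate early genes were highest in 1 sample. Their median was 0.315, and 0.505 with 12 of 15 folds positive without samples 10 and 11. Their summed level was 2670 CPM in sample 8 (0.5 h), 999 in sample 7 (0.5 h), 761 in sample 31 (0.5 h) and 416 to 662 in the 7 samples at 4 and 24 h. Fos, the founding member of the AP-1 family, had 215 CPM in sample 8, 32.0 in sample 7 and 9.51 to 22.2 in the rest. Egr1, an activity-induced zinc finger factor, was lowest in samples 10 and 11, at 102 and 68.8 CPM, against 123 to 441 in the other 8.

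Neuronal markers were lower in samples 10 and 11. Of 20 neuron genes, 19 had negative folds with a median of -0.14, and without samples 10 and 11 the median was -0.05 with 7 positive. Their sum was 14300 and 12600 CPM in samples 10 and 11, 18000 to 18800 in the other first-set samples and 17000 to 19700 in the second set. Snap25, a protein of synaptic vesicle fusion, was the only neuron gene with separate sets, at 1980 and 2050 CPM in samples 10 and 11 and 2770 to 2990 in the other 4 against 3140 to 3720. Among all features, 1.92% had separate sets with the first set lower. Cortical layer genes had a median of -0.307 (-0.124 without samples 10 and 11), and Rasgrf2, of upper layers, had 119 and 92.8 CPM in samples 10 and 11, 165 to 216 in the other 4 and 180 to 251 in the second set. Interneuron genes had a median of -0.282 (-0.0891). CPM are shares of the whole library, so a larger share for some genes leaves a smaller one for the rest. The folds come from fits with TMM scaling, and the part of such shares in the neuronal values was not tested.

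Oligodendrocyte genes were also high in samples 10 and 11. Their sum was 9360 and 10700 CPM there, 4790 to 6140 in the other first-set samples and 4500 to 7490 in the second set. The list median changed sign, from 0.176 to -0.175, when samples 10 and 11 were left out. Trf, the iron carrier transferrin, had 671 and 864 CPM there, 136 to 255 in the other 4 and 142 to 219 in the second set. Mbp, a main protein of compact myelin, had 3270 and 4270 CPM there, 2040 to 2420 in the other 4 and 1800 to 2900 in the second set. Precursor genes had a median of 0.303 (0.127). Proliferation genes, of which 7 of 14 were tested, also changed sign, from 0.417 to -0.0911, and Top2a, the replication topoisomerase, had 5.28 and 6.38 CPM in samples 10 and 11 and 0.258 to 2.17 in the other 8.

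Vessel cells showed little difference. Endothelial and mural lists had medians of -0.107 and -0.0429 (0.0291 and 0.094 without samples 10 and 11). Slc2a1, the glucose transporter of the blood-brain barrier, had 65.5 to 111 CPM against 57.3 to 67.6. The axon injury list had a median of 0.219 (0.0369 without samples 10 and 11). Atf3, a transcription factor induced by axon damage that failed the filter, had 6.15, 7.9 and 11.6 CPM in samples 8, 10 and 11, 0.879 to 1.16 in samples 7, 9 and 12 and 0.383 to 0.744 in the second set.

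Markers of other cells and of neighbouring tissue were checked because a dissected cortex can carry them. None of 12 leukocyte genes passed the filter, and their sum was 1.2 to 3.73 CPM in the first set and 1.9 to 7.56 in the second. The T cell marker Cd3e and the B cell marker Ms4a1 were at 0.143 and 0.11 CPM or less in every sample, and samples 10 and 11 had the lowest sums, 1.56 and 1.2 CPM. Border macrophage genes, of which 5 of 8 were tested, had 18.1 to 41.0 CPM against 17.0 to 20.8 (median 0.763, or 0.684). The hemoglobin list had 94.4 to 232 CPM against 123 to 249.

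Genes of choroid plexus were highest in 2 samples of the second set. Their sum was 2530 CPM in sample 31, 1340 in sample 32 and 426 in sample 12, against 50 or less in the other 7, of which samples 8 and 34 had 13.9 and 28.0. The median over the 5 of 14 members tested was -2.02, and -1.81 without samples 10 and 11. Ttr, transthyretin, made up most of it, with 2380, 1200 and 387 CPM in these samples. Striatal genes had 804 CPM in sample 32, 487 in sample 34, 349 in sample 7 and 192 to 269 in the other 7, with a median of -1.49 (-1.26 without samples 10 and 11), and all 10 members had negative folds. Drd2, the dopamine receptor of indirect-pathway neurons, had 19.5 and 9.68 CPM in samples 32 and 34 and 0.863 to 3.55 in the other 8. Meningeal fibroblast genes had 1410 CPM in sample 12 and 601 to 959 in the other 9 (median 0.171, or 0.245 without samples 10 and 11). Thalamic genes separated the sets in their sum, at 62.9 to 66.7 CPM in samples 7, 8, 9 and 12 and at 103 and 108 in samples 10 and 11, against 55.4 or less in the second set (median of 8 tested members 0.42, or 0.264 without samples 10 and 11), so their 2 highest samples were those of the glial lists. Hippocampal genes summed to 158 to 211 CPM against 176 to 208 (median -0.18, or -0.195), although 1 of 6 tested members, C1ql2, separated the sets and is described with the largest folds. The part of these tissue markers in the glial differences was not tested.

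**Figure D3:**
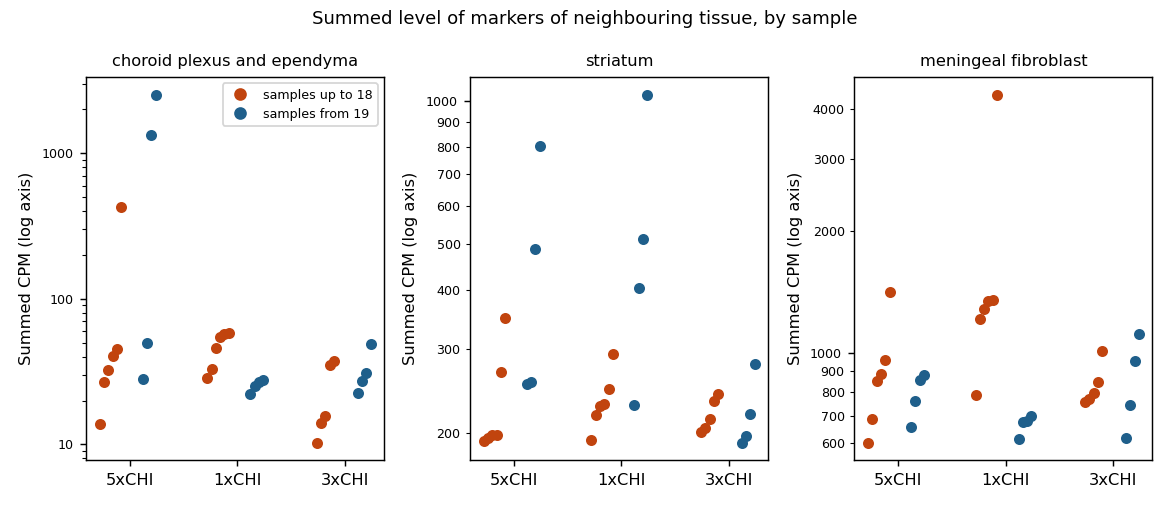
Summed CPM (log axis) of marker lists for choroid plexus and ependyma, striatum and meningeal fibroblasts in 5xCHI, 1xCHI and 3xCHI; each point is 1 sample, coloured by number set. Samples 31 and 32 of 5xCHI lie at 2530 and 1340 CPM in the first panel, and 1 sample of 1xCHI lies at 4330 CPM in the third.

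Across all features, as a description of size, the 5xCHI split gave 0 calls at an edgeR adjusted p under 0.05 among 15224 features (0.0%), 2881 features at an unadjusted p under 0.05, and 411 calls with DESeq2, or 1 call with edgeR without samples 10 and 11. The sets were separate in CPM in 731 features with the first set higher and 292 with it lower. Under TMM-scaled CPM these were 509 and 505, so the tilt to higher values depends on the scaling, while Gfap stayed separate. Counts of separate sets within lists used CPM without this scaling. A log2 fold change above 1 was seen in 196 features and below -1 in 52, and without samples 10 and 11 in 58 and 26. The same split gave more of both in 1xCHI, 303 and 217, and fewer in 3xCHI, 18 and 22.

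The features furthest outside the second set came from samples 10 and 11. Sample 11 had 634 features at more than 2 times the highest second-set value and 370 at less than 1/2 of the lowest, and sample 10 had 309 and 93. Samples 7, 8, 9 and 12 had 24, 66, 14 and 44 above and 22, 30, 12 and 17 below. Samples 10 and 11 were taken at different times, 4 h and 24 h after the last injury, and in both time classes the other first-set mouse (9 and 12) lay much closer to the second set. Measured against their own second set, samples 13 to 18 of 1xCHI had 56 to 317 features above and 41 to 326 below. Samples 1 to 5 of 3xCHI had 6 to 57 above and 8 to 38 below.

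The 15 largest positive folds with separate sets were those of S100a4, Serpina3n, Gfap, C1ql2, Lyz2, Vim, C4b, Capg, Cd44, Ccl6, Tshz2, C3ar1, Maff, Cd109 and Cd52. S100a4, a calcium-binding protein of motile cells, had 1.29 to 4.08 CPM in the lower samples, 11.0 in sample 10 and 29.3 in sample 11 against 0.478 to 0.846 (log2 3.56, or 1.47). Capg, an actin-capping protein of macrophages, had 2.62 to 3.49, 9.37 and 17.6 CPM against 0.952 to 1.36. Maff, a small basic leucine zipper factor, was the least dependent on samples 10 and 11, at 2.25 to 4.44, 4.14 and 6.33 CPM against 0.526 to 1.43 (log2 2.16, or 1.92). Tshz2 is a zinc finger factor, and C1ql2, a secreted C1q-domain protein of synapses, is a member of the hippocampal marker list. Tshz2 had 40.6 to 62.7, 222 and 276 CPM against 17.8 to 27.6, and C1ql2 had 2.09 to 3.92, 25.0 and 27.0 CPM against 0.634 to 2.01.

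The largest negative folds with separate sets were smaller and mostly of low-level genes, 14 of them being Acvr1c, Pld5, Plk5, Pln, Neu2, 4930539E08Rik, Gpr153, Ndst4, Epha3, Cdyl2, Acot5, 2210418O10Rik, Ighg2c and Lrriq1. Acvr1c, the activin receptor ALK7, had 19.8 to 22.6 CPM in the lower samples, 10.2 in sample 10 and 4.89 in sample 11 against 36.3 to 41.5 (log2 -1.35, or -0.89). Gpr153, an orphan receptor, differed equally with and without samples 10 and 11, at 12.8 to 21.9 CPM against 25.2 to 38.4 (log2 -0.99, or -0.97). Plk5, a polo-like kinase of neurons, had 3.74 to 15.2 CPM against 17.8 to 22.9. Ighg2c, an immunoglobulin heavy chain segment, had 1.39 to 2.53 CPM against 3.44 to 4.04.

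**Figure D4:**
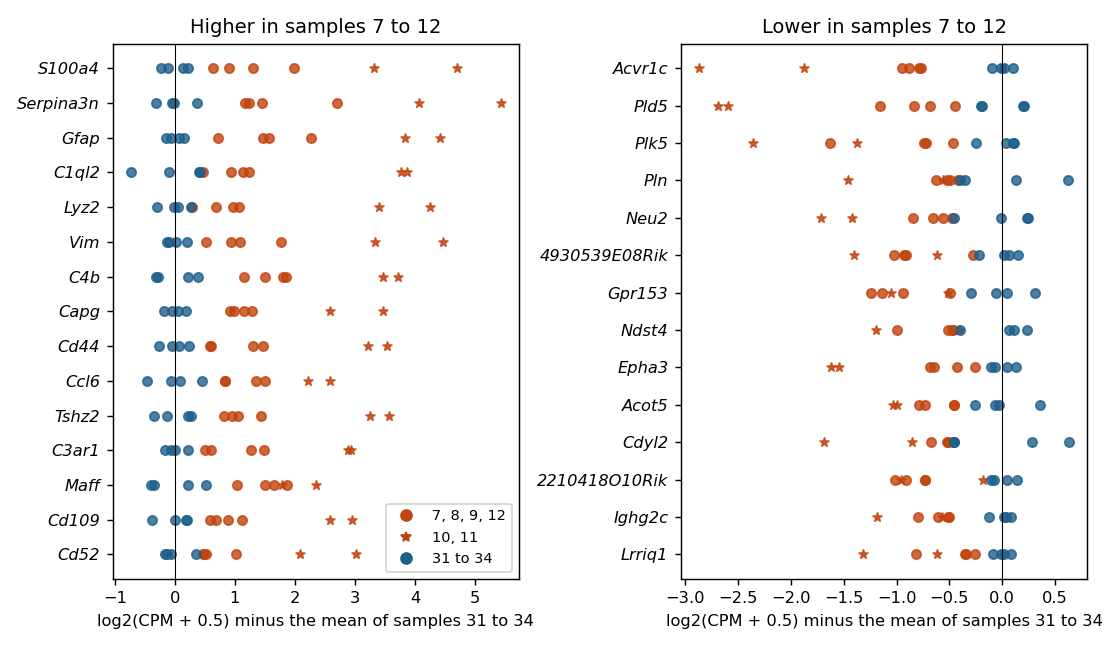
Each first-set and second-set sample of 5xCHI for the 15 largest positive (left) and 14 of the largest negative (right) folds with separate sets, as log2(CPM + 0.5) minus the mean of samples 31 to 34; stars mark samples 10 and 11. For Gfap and Serpina3n the stars lie far from the other first-set points, while for Maff and Gpr153 they lie among or near them.

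The 10 transcripts most like Gfap over the 10 samples, by Pearson's r of log2(CPM + 1), were Tgfb1, Vim, Serpina3n, C4b, C3ar1, Itgb2, Mmd2, Tshz2, Col16a1 and Hvcn1. Their r ran from 0.977 to 0.993, and over the 8 samples without 10 and 11 from 0.902 (Col16a1) to 0.986 (Tgfb1). These values describe a choice made on r and carry no p, and all points come from 1 dissected tissue and 1 count table. Itgb2, the beta chain of leukocyte integrins, had 4.35 to 7.28 CPM in the lower samples, 12.8 in sample 10 and 18.9 in sample 11 against 2.96 to 4.52. Mmd2, a membrane protein, spanned a narrow range, 104 to 181 CPM against 86.5 to 94.4, and still kept the order.

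The same split was then tested in 1xCHI, with samples 13 to 18 (n = 6) against 26, 27, 28 and 36 (n = 4). It gave 6743 calls among 15224 features (44.3%), 3223 higher in the lower-numbered set (21.2%) and 3520 lower (23.1%). Leaving out 1 sample at a time gave 4419 calls (without sample 36) to 6851 (without sample 28). In 2480 features (16.3%) the sets were separate with the first set higher, and in 1869 (12.3%) with it lower (2307 and 2219 under TMM-scaled CPM). The reactive genes that marked the first set of 5xCHI did not share 1 direction there. Of the 9 pan-reactive genes tested, 3 were called higher and 3 lower, with a median of 0.294. Vim rose (39.5 to 104, median 53.5, against 32.7 to 42.6 CPM, log2 0.54, edgeR adjusted p = 0.0158, a call lost without sample 17 or 36, at 0.45 and 0.35), as did Aspg and Hspb1. Serpina3n fell without overlap (3.22 to 6.6, median 5.37, against 6.89 to 10.2 CPM, log2 -0.68, edgeR adjusted p = 0.00388), and Cd44 and S1pr3 fell too.

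Microglial and complement genes were mixed in 1xCHI. Of the disease-associated list, 5 of 16 were called higher (Trem2, Spp1, Ctsz, Cd9 and Cd63) and Ctsb was called lower. Of 14 homeostatic microglia genes, 6 were called lower, among them Csf1r, the receptor for colony-stimulating factor 1 (log2 -0.46, edgeR adjusted p = 0.00172), and none higher. C4b and C1qa were called higher and Itgam lower among 10 complement genes. C4b had 17.5 to 60.5 CPM (median 34.6) against 17.5 to 23.2 (log2 0.66, edgeR adjusted p = 0.00738, a call lost without sample 36, at 0.51). Stat3 was called lower (log2 -0.33, edgeR adjusted p = 0.0107), opposite to its order in 5xCHI, and Socs3 higher (log2 0.81, edgeR adjusted p = 0.0213). These counts stand against 21.2% of all features called higher and 23.1% called lower.

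Against 21.2% of all features called higher and 23.1% called lower, interferon-response genes were called higher in 7 of 14 and lower in 1 in 1xCHI (median 0.633), immediate early genes higher in 5 of 15 and lower in none (14 positive folds, median 0.652), and MHC genes higher in 6 of 11 (median 0.426). Neuron genes were called lower in 13 of 20 and higher in 1 (median -0.26), and cortical layer genes lower in 6 and higher in 2 of 14. Homeostatic astrocyte genes were called lower in 4 of 19 (median -0.0571), with Slc1a2 among them (log2 -0.68, edgeR adjusted p = 0.000815). Of 15 meningeal fibroblast genes 13 were called higher (median 1.1), and 9 of 10 striatal genes lower (median -1.37), which were the furthest medians of all lists in this group. Meningeal genes summed to 789 to 4330 CPM against 613 to 698, and striatal genes to 193 to 293 against 229 to 1030. Thalamic genes summed to 64.9 to 122 CPM against 53.6 to 61.7, with 3 of 8 called higher and 1 lower (median 0.404). Metallothionein and oxidative stress genes were called higher in 5 and lower in 3 of 12, with 6 positive and 6 negative folds. The first set also had more mitochondrial reads (8.19% to 10.3% against 6.25% to 8.41%) and more ribosomal protein reads (1.28% to 1.5% against 0.838% to 1.09%). The part of these in the calls was not tested.

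In 3xCHI, with samples 1 to 5 (n = 5) against 22, 23, 37 and 38 (n = 4), the split gave 0 calls (0.0%), 1524 features at an unadjusted p under 0.05 and 7 calls with DESeq2. The sets were separate in 554 features with the first set higher (3.64%) and 425 with it lower (2.79%). Under TMM-scaled CPM these were 507 and 523, so the tilt depends on the scaling here too. The pan-reactive median was 0.198, the disease-associated microglia median 0.215 and the complement median 0.128, with no list member called. All 15 immediate early genes and all 12 glucocorticoid-responsive genes had negative folds here (medians -0.509 and -0.216), whereas 10 of 15 and 11 of 12 were positive in 5xCHI and 14 of 15 and 6 of 12 in 1xCHI. At 4 h 3xCHI held first-set samples only, so that time carried no information on the split. Striatal and meningeal lists had medians of -0.00493 and -0.05. With sample 30, which adds a second-set sample at 4 h, there were still 0 calls and 2605 features at an unadjusted p under 0.05, and 433 and 292 features were separate. The pan-reactive, disease-associated microglia and complement medians were then 0.321, 0.223 and 0.216, the immediate early median -0.375 with all 15 folds negative, the glucocorticoid-responsive median 0.0178 with 7 of 12 folds positive, and the striatal and meningeal medians -0.806 and -0.155. The glucocorticoid and striatal values of 3xCHI therefore rest on whether sample 30 is used.

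**Figure D5:**
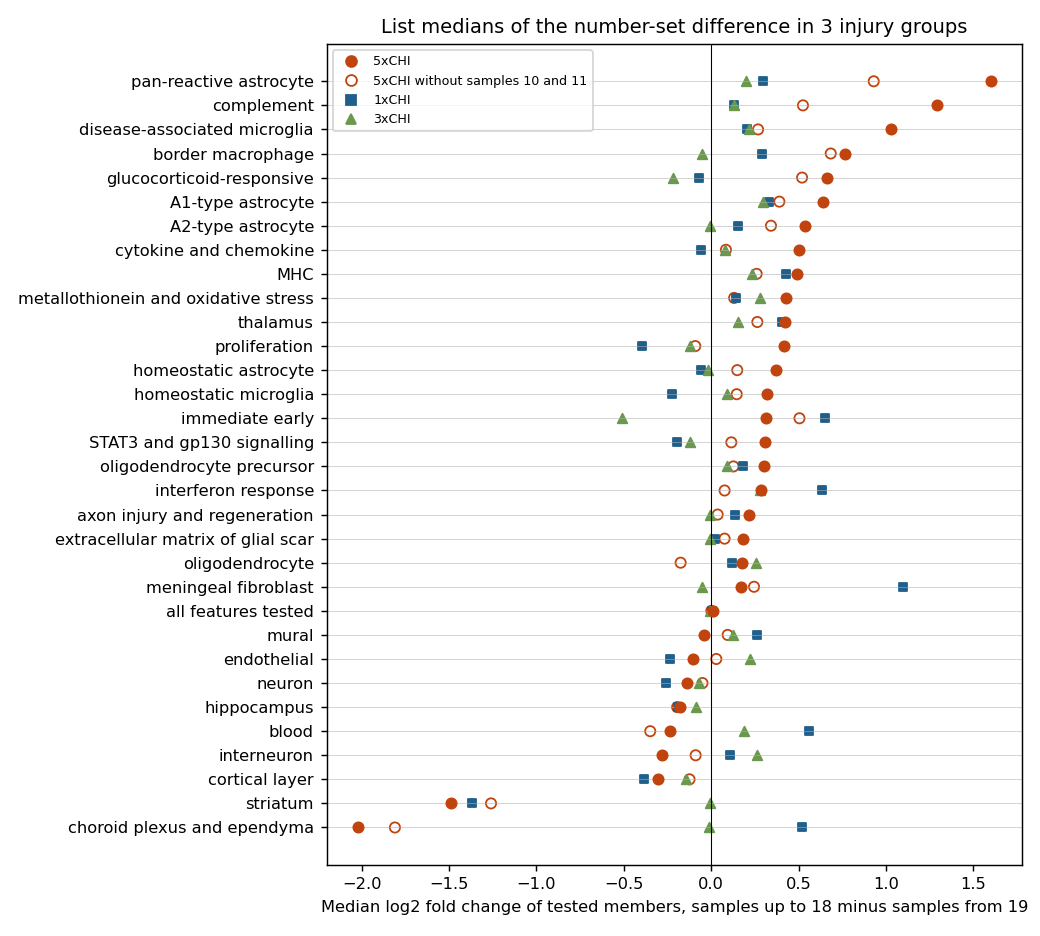
Median log2 fold change of the tested members of each gene list (leukocyte and sex-linked lists, with at most 1 tested member, are not drawn), samples up to 18 minus samples from 19, in 5xCHI (filled circles), 5xCHI without samples 10 and 11 (open circles), 1xCHI (squares) and 3xCHI (triangles). The pan-reactive median is 1.60 in 5xCHI, 0.93 without samples 10 and 11, 0.294 in 1xCHI and 0.198 in 3xCHI, whereas the striatal median is -1.49, -1.26, -1.37 and -0.00493 (-0.806 for 3xCHI with sample 30, which is not drawn).

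Side by side over all 15224 features, the folds of 5xCHI and 1xCHI had a Pearson r of 0.495 and the same sign in 72.3% (0.365 and 65.0% without samples 10 and 11). Those of 5xCHI and 3xCHI had 0.284 and 64.8% (0.132 and 56.8%), and those of 1xCHI and 3xCHI had 0.51 and 72.3%. These are across genes, which are not independent replicates, no mouse entered more than 1 group, and sample 30 was left out. Of the 731 features separate and higher in the first set of 5xCHI, 244 (33.4%) were also separate and higher in 1xCHI, against 16.3% of all features, and 7 separate and lower. Of the 292 separate and lower, 120 (41.1%) were separate and lower in 1xCHI, against 12.3%, and 1 separate and higher. In 3xCHI the matching counts were 37 (5.06%, against 3.64% of all features) and 4, and 12 (4.11%, against 2.79%) and 1.

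C1ql2, Tshz2 and Acvr1c were among the largest folds of 5xCHI that also passed the test in 1xCHI in the same direction. C1ql2 rose by 1.76 (edgeR adjusted p = 0.00232), Tshz2 rose by 1.40 (edgeR adjusted p = 0.00286) and Acvr1c fell by 1.36 on the log2 scale (edgeR adjusted p = 0.000239). Lyz2, S100a4, Capg, Ccl6, C3ar1, Maff, Cd109 and Cd52 were not called in 1xCHI. In 3xCHI the folds of C1ql2, Tshz2 and Acvr1c were -0.10, 0.33 and -0.11 (0.37, 0.46 and -0.26 with sample 30).

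The difference between the splits was fitted as an interaction of set and group. Because the 5xCHI side was selected on its values, this is no test, and the counts and differences are a description. Against 1xCHI, 7 features passed the threshold (0.046%, with 3060 features at an unadjusted p under 0.05), and against 3xCHI 0 (0.0%, with 1166 at an unadjusted p under 0.05 and 25 calls with DESeq2). None of the 7 was a glial marker of the lists. Xdh, xanthine dehydrogenase, was higher in the first set of 5xCHI (8.62 to 18.0 against 5.69 to 7.38 CPM, log2 0.99) and fell in 1xCHI (-0.84), a difference of 1.83. Bex1, a small neuronal protein, was at -0.02 in 5xCHI and rose in 1xCHI (0.86), a difference of -0.88. Adgrl4, an endothelial adhesion receptor, was at 0.24 and fell in 1xCHI (-0.94), a difference of 1.19. Kirrel2, Net1 and AI464131 likewise fell in 1xCHI (-0.45, -0.52 and -0.21) and were at 0.58, 0.24 and 0.53 in 5xCHI, but the 1xCHI call was lost for Kirrel2 without sample 27 and for AI464131 without any of samples 13, 17, 26, 27 or 36. Rn7s1, a 7SL RNA with near-identical copies and so uncertain, was at -0.16 in 5xCHI and rose by 3.66 in 1xCHI. The calls against 1xCHI rested on single samples, since leaving out 1 sample at a time gave 1136 calls without 5xCHI sample 11, 430 without 12, 107 without 9 and 87 without 1xCHI sample 28, but 0 without any of 5xCHI samples 7, 8, 31 or 33 or 1xCHI samples 13, 14, 17, 18, 26 or 27, and 1428 calls without samples 10 and 11 together.

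Folds also followed transcript length in all 3 groups. Over 15215 features with a length in GENCODE M21, Spearman's rho between the fold and the longest transcript was -0.292 in 5xCHI, -0.458 in 1xCHI and -0.474 in 3xCHI, so shorter transcripts tended to be higher in the lower-numbered set. In 5xCHI the median fold was 0.0979 in the shortest of 4 length classes and -0.104 in the longest. The part of length in the list medians was not tested.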

How the data were processed

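Left somatomotor cortex RNA of 40 female mice (3xTg-AD) was sequenced. The authors deposited expected counts (estimated counts per gene, 4.46% of the values not whole) that a sequencing company had made without normalization. Per the labels the build is mm10. The aligner is not given in the sources used here. No column of authors' comparisons was present or used.

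Counts were rounded and 39 samples used (sample 30, 3xCHI at 4 h, left out as in an earlier analysis of these data). The study left out 1 sample that it does not name, though its sample sizes place that sample in 3xCHI at 4 h. A feature was tested if at most 4 samples had fewer than 10 counts, which left 15224 of 55539. Each split was fitted on its own group with edgeR 4.0.16 (TMM, quasi-likelihood, R 4.3.3) with time as a block, and interactions with a mean per group and time. Calls are at a Benjamini-Hochberg adjusted p under 0.05 over all features tested, and DESeq2 1.42.0 was an alternative. CPM used the total counts of the samples. P-values measure the spread between these samples. The number sets, samples 10 and 11 and the 33 gene lists were chosen with earlier results of these data known. Named genes are up to 4 members of each list with the highest mean CPM in 5xCHI, the 15 largest folds in each direction with separate sets and an unadjusted p under 0.05, interaction calls and the 10 transcripts most like Gfap. Other genes in the text were named after their values were seen. The fits were tested on simulated data. The 48 pairs of samples within groups all differed by more than sampling noise (smallest chi-square per gene 6.85). Alternatives were DESeq2, library size scaling, other filters, no time term, 1 fit of all 39 samples, sample 30 kept and leaving out each sample. Leaving out samples 10 and 11 together, and TMM-scaled CPM, were added after seeing the data. Results for the human transgenes and for some listed genes are not reported here.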

Additional observations from a re-analysis of the deposited data

Results flagged for a closer look

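Of 146 sets of 4 or 6 samples of 5xCHI tested for a sample far from the others, 11 had one, where chance gives about 1 in 20. Samples of a set differ in time after injury, and no explanation was weighed.

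In the second set, sample 34 had the highest summed level of cytokine and chemokine genes (767 CPM, the rest 692 to 703) and of interferon-response genes (148 CPM, the rest 113 to 118). Sample 32 had the highest glucocorticoid-responsive sum (801 CPM, the rest 644 to 663) and hippocampal sum (208 CPM, the rest 176 to 181), and it was also the sample with the most striatal signal. Sample 31, which held the most choroid plexus signal, had the highest interneuron sum (1100 CPM, the rest 860 to 883) and the highest level of Net1, a guanine nucleotide exchange factor (41.5 CPM, the rest 35.0 to 35.6).

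In the first set, sample 11 had the lowest cortical layer sum (621 CPM, the rest 840 to 997), the lowest Pln, a regulator of the calcium pump (0.336 CPM, the rest 0.99 to 1.22), and the lowest Cdyl2, a chromodomain protein (0.815 CPM, the rest 1.84 to 2.57). Sample 10 had the highest 2210418O10Rik (5.56 CPM, the rest 2.89 to 3.64). Sample 12 had the highest choroid plexus and ependyma sum (426 CPM, the rest 13.9 to 44.9).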

How the results depend on the processing

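In 1xCHI, the split that was tested, no called fold of a named gene changed direction, but 42 named genes lost their call under at least 1 alternative (177 values in all), and folds that were not called changed sign in 12 values that moved by more than the standard error of the fold and in 97 that moved by less. In 5xCHI the number of calls, 0 with edgeR, was 411 with DESeq2, 1 with a filter of 10 counts in 4 samples, 1863 with no filter, 936 when all 39 samples shared 1 fit, and 1 without samples 10 and 11. Leaving out each sample gave 0 to 2 (2 without sample 12). The 292 features separate and lower in the first set became 505 with TMM-scaled CPM. In 1xCHI leaving out each sample gave 4419 (without 36) to 6851 calls, and the other alternatives stayed within 1.5 times. In 3xCHI there were 7 calls with DESeq2, 340 with no filter and 2 with no time term, and 0 to 0 when each sample was left out.

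The 7 calls for 5xCHI against 1xCHI became 692 with DESeq2, 3 with library size scaling, 11 with the filter of 10 counts in 4 samples, 1484 with no filter, 1557 in the fit of all 39 samples and 1428 without samples 10 and 11. Leaving out each sample gave 0 to 1136, among them 1 without 10, 2 without 36, 4 without 16 and 11 without 34. For 5xCHI against 3xCHI, 0 calls became 25 with DESeq2, 458 with no filter and 4 in the fit of all 39 samples, and leaving out each sample gave 0 to 12 (12 without 9, 2 without 32). The causes were not tested.

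Of the fold changes of named genes in 5xCHI, 185 of the values under alternatives moved by more than that standard error and 23 of these changed sign. In 3xCHI 229 moved and 86 of these changed sign. For list medians the limit was instead the SD of the list level between samples within the sets. By it, 13 values of list medians moved in 5xCHI and 4 of these changed sign, among them oligodendrocyte and proliferation genes without samples 10 and 11. In 1xCHI 3 moved (1 changed sign), and in 3xCHI 42 (19 changed sign). A lack of calls in 5xCHI and 3xCHI does not show equal levels.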

Other observations

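Across the series, the summed pan-reactive astrocyte genes were at 196 to 247 CPM in sham, 179 to 521 in 1xCHI, 185 to 220 in 2xCHI, 312 to 741 in 3xCHI and 211 to 347 in 4xCHI, so the second set of 5xCHI (180 to 206 CPM) lay below the 9 samples of 3xCHI used here. Sample 30, the 3xCHI sample left out, had 185 CPM and lay within that range. Disease-associated microglia genes were at 1040 to 1110 CPM in sham, 1120 to 1150 in 2xCHI, 1090 to 1420 in 3xCHI and 1110 to 1170 in 4xCHI. Complement genes were at 133 to 159 CPM in sham and 181 to 260 in 3xCHI (148 in sample 30). Choroid plexus genes reached 911 CPM in 1 sample of 4xCHI and 168 CPM in 1 sample of 2xCHI. Striatal genes reached 953 CPM in 1 sham sample.

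The transcripts that ran most opposite to Gfap over the 10 samples of 5xCHI were neuronal in large part. They included Calb1, the calcium buffer calbindin, Gabrd, the delta subunit of extrasynaptic GABA receptors, Kcnip2, a potassium channel partner, and Foxp1, a cortical transcription factor, with Pearson's r of -0.963, -0.968, -0.961 and -0.968 (-0.848, -0.878, -0.848 and -0.859 without samples 10 and 11). These were picked on r and carry no p.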
